A study of Mus musculus with 8 samples.

Results

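The adult alpha globins Hba-a1 and Hba-a2, the adult beta globins Hbb-b1 and Hbb-b2, the alpha globin chaperone Ahsp and the carbonic anhydrases Car1 and Car2 were followed through c-Kit-positive bone marrow cells of mice. Members were the rows of the deposited table of FPKM (fragments scaled by transcript length and by sequencing yield) that carried one of these 7 symbols. 6 of the 7 had a row among 23293 mouse genes, and Ahsp is not analysed here. The copies within each globin family share reads, so a value on one copy cannot be assigned to that copy alone.

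RNA sequencing was done on cells that had been picked with magnetic beads against c-Kit (Cd117), a receptor of early blood cells, 4 weeks after PIpC, the agent that switches on the Mx1-cre recombinase. There were 8 libraries from individual mice, 2 in each of 4 groups. Controls were Smc3 fl/+, with a floxed allele and no Mx1-cre. The mice labelled Smc3 del/+ carried Mx1-cre and a deleted allele of Smc3, a core subunit of the cohesin ring. The Flt3-ITD mice carried Mx1-cre and the internal tandem duplication of Flt3, a mutation of acute myeloid leukaemia that keeps this receptor kinase active. The combined mice carried Mx1-cre, Flt3-ITD and the Smc3 deletion; their genotype field reads Smc3 fl/del, and their title reads het. Mx1-cre acts in many cell types that respond to interferon, and only the controls lacked it, so its presence and the other alleles cannot be told apart in a comparison with control. Smc3 itself stood at 119 and 112 FPKM in the controls, 135 and 133 in libraries labelled Smc3 del/+, 94.7 and 89.9 in Flt3-ITD libraries and 103 and 136 in combined libraries. It was thus not lower in either group labelled as carrying the deletion than in its counterpart without it, and what a row over the whole gene shows of a deletion in part of it was not tested. Groups are named by their labels throughout, and every direction drawn between them rests on those labels.

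Haemoglobin, the oxygen carrier of red cells, is built from alpha and beta globin chains, each holding a haem. In the adult mouse each chain comes from a pair of near-identical genes, which erythroid precursors switch on under factors such as Gata1 and Klf1. Ahsp binds free alpha chains until a beta chain takes its place. Car1 and Car2 are the abundant cytosolic carbonic anhydrases of red cells and interconvert carbon dioxide and bicarbonate, so that red cells can carry carbon dioxide; Car1 transcripts already mark early erythroid progenitors.

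The coding sequences of Hba-a1 and Hba-a2, each of 426 bases, differ at 1 base, at position 381. The member rows Hbb-b1 and Hbb-b2 could not be matched to a beta gene copy. Beta sequences, here and for the promoters, are therefore those of Hbb-bs and Hbb-bt, the adult beta pair of the reference strain. They cannot be assigned to a member row. The coding sequences of this pair have 441 bases and differ at position 417. The stretches around these differences are shown because they are the only coding bases by which a fragment could be told to come from one copy or the other. They come from the GENCODE vM21 transcripts, run from base 351 to 410 for the alpha pair and from base 382 to 441 for the beta pair, counted from the start codon, and have the differing base in capitals.
Hba-a1: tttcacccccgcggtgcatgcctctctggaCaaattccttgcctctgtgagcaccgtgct
Hba-a2: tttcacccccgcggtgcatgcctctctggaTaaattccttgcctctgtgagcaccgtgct
Hbb-bs: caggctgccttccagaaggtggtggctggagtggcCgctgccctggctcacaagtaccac
Hbb-bt: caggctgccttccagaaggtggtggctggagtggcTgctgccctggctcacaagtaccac
Of all 50-base windows of the Hba-a1 transcript, 67.5% also lie in that of Hba-a2, and 86.9% of those of Hba-a2 lie in that of Hba-a1. For Hbb-bs and Hbb-bt these shares were 65.8% and 58.3%, and whether they hold for the rows Hbb-b1 and Hbb-b2 is unknown. Car1 and Car2 share no 50-base window with each other. Whether they share any with other genes was not tested.

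The 250 bases before the start sites are shown because the globins moved together in the data below. They are from RefSeq, build GRCm38.p6, read in the direction of the gene. Hba-a2 lies at chr11:32296242-32296491 on the plus strand. Hbb-bs and Hbb-bt lie on the minus strand at chr7:103827929-103828178 and chr7:103813924-103814173. Capitals mark 4 motifs searched on both strands: AGATAA or TGATAA (the letters Gata1 binds), CACCC (bound by Klf1 and its relatives), CCAAT, and TATAAA or CATAAA.
Hba-a2: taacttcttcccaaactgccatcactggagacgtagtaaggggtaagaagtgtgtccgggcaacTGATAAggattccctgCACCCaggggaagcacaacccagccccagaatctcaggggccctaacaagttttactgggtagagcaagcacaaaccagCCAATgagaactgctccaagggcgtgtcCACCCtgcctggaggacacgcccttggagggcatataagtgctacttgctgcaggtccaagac
Hbb-bs: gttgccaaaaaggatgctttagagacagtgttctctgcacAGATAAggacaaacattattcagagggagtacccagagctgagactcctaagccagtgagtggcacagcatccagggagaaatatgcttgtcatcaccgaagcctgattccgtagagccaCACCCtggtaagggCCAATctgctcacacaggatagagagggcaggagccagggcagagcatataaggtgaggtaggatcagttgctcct
Hbb-bt: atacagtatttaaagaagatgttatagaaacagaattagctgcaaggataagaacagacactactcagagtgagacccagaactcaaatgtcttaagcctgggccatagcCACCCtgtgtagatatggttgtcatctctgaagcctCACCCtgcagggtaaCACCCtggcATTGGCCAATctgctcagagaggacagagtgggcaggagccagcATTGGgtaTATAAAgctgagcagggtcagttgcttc
In the longer windows of the source table, which reach past the start, the Hba-a1 promoter shares an unbroken run of 297 bases with that of Hba-a2, and the beta promoters share no run beyond 14. Both alpha promoters held 1 TGATAA, 2 CACCC and 1 CCAAT. Hbb-bs held 1 AGATAA, 1 CACCC and 1 CCAAT, while Hbb-bt held 3 CACCC, 3 CCAAT and 1 TATAAA. Among all 32544 promoter windows of this length, 16.5% held AGATAA or TGATAA, 52.1% CACCC, 33.8% CCAAT and 20.8% TATAAA or CATAAA. A match describes letters only, and a missing match says only that those letters are not in the window.

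In controls the transcripts of both carbonic anhydrases and of 1 member globin row per family were abundant. Their means in Smc3 del/+ libraries were 82.5% to 99.1% of control. In all 4 libraries that carry Flt3-ITD they were several-fold lower. Car1 was the highest member in controls, at 1216 and 1135 FPKM, the 43rd highest mean of all mouse genes. In order of their control means, Car2 (416 ± 10.3 FPKM, SD, n = 2) and Hba-a2 (346 ± 0.437) followed, without overlap between neighbours. Hbb-b2 was lowest at 157 ± 19.6 FPKM and overlapped Beta-s (193 ± 35.0), the row of another beta globin, whose name RefSeq gives as a synonym of Hbb-bs.

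**Figure D1:**
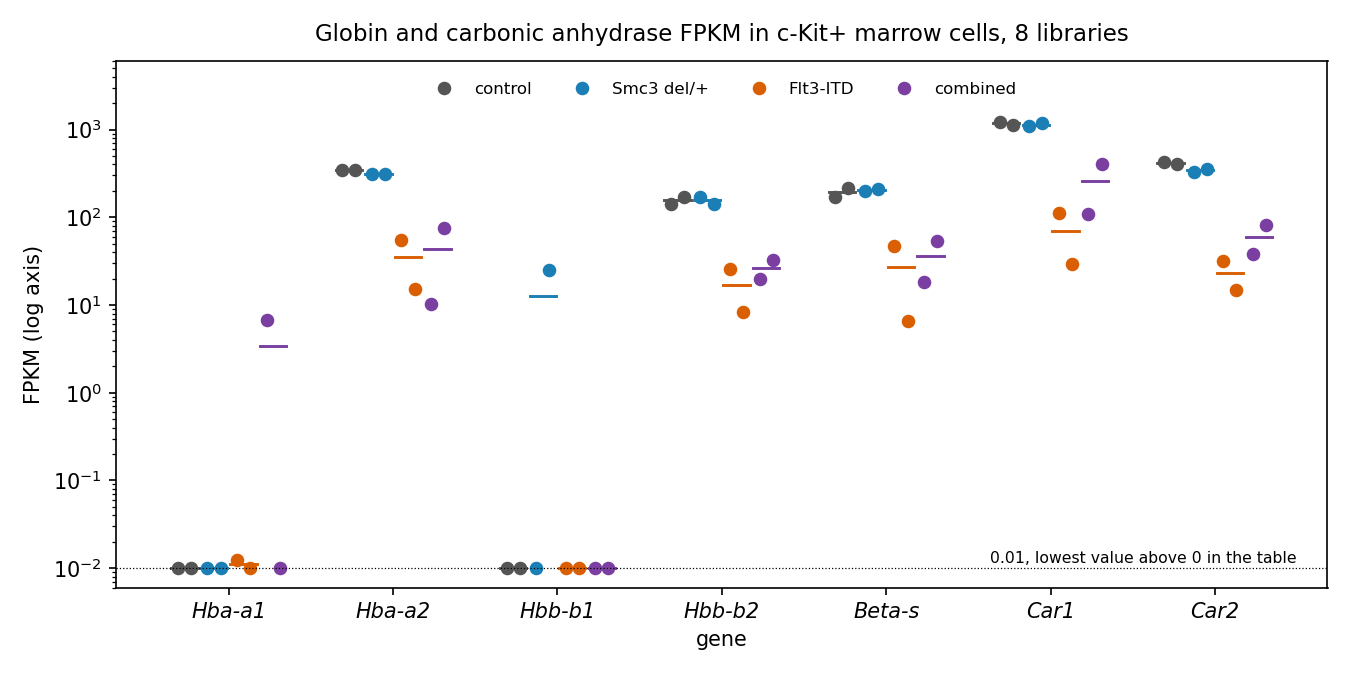
FPKM of members and of Beta-s in each library on a log axis, by group, with a point per library and a line at the group mean. The Flt3-ITD and combined libraries lie below all control and Smc3 del/+ libraries for Hba-a2, Hbb-b2, Car1 and Car2.

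The alpha globin signal sat on Hba-a2, which encodes the alpha chain of adult haemoglobin. Its FPKM was 347 and 346 in controls, 308 and 314 in Smc3 del/+ libraries, 55.5 and 15.1 in Flt3-ITD libraries and 10.2 and 75.8 in combined libraries. The control and Smc3 del/+ replicates lay within 1.02-fold of each other, while the replicates were 3.66-fold apart in Flt3-ITD and 7.40-fold apart in the combined group. Hba-a1, its near-identical copy, was listed at 0.01 FPKM, the lowest value above 0 in the table, in 6 libraries. It stood at 0.0123 FPKM in Flt3-ITD replicate 1 and at 6.75 in combined replicate 1, the library with the lowest Hba-a2. The 2 rows summed to 17.0 FPKM there, and Hba-a1 did not reach the mean of 1 FPKM needed for a test.

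Of the beta globin member rows, Hbb-b2 held most of the signal in every library, and a row outside the members, Beta-s, was abundant beside it in controls. Hbb-b2 stood at 143 and 171 FPKM in the controls, 169 and 142 in Smc3 del/+ libraries, 26.0 and 8.24 in Flt3-ITD libraries and 19.8 and 32.9 in combined libraries. All control and Smc3 del/+ libraries were above all that carry Flt3-ITD. Hbb-b1 was listed at 0.01 FPKM in 7 libraries and at 25.1 in Smc3 del/+ replicate 2, so it passed the mean filter through 1 library alone and no fold is given. Beta-s, no member, followed Hbb-b2 with 169 and 218 FPKM in controls and 47.5 and 6.60 in Flt3-ITD.

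Car1, the most abundant member in controls, stood at 1216 and 1135 FPKM in the controls, 1097 and 1182 in Smc3 del/+ libraries, 111 and 29.5 in Flt3-ITD libraries and 109 and 406 in combined libraries. Combined replicate 2 was the highest of the 4 libraries with Flt3-ITD, yet still below every control and Smc3 del/+ library. Car2, the faster enzyme of the pair, stood at 423 and 408 FPKM in the controls and at 327 and 359 FPKM in both Smc3 del/+ libraries. In Flt3-ITD it was 32.0 and 14.8, and in the combined group 38.3 and 81.9, a difference that did not pass the test given below.

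Expressed against the control mean, Flt3-ITD libraries held 10.2% of Hba-a2, 10.9% of Hbb-b2, 5.99% of Car1 and 5.62% of Car2. The combined libraries held 12.4%, 16.8%, 21.9% and 14.5% of the same genes in that order, and Smc3 del/+ libraries 89.9%, 99.1%, 96.9% and 82.5%. The order of levels also moved: Hba-a2 ranked below Car2 in controls, and in Flt3-ITD its mean (35.3 FPKM) was above that of Car2 (23.4), though their libraries overlapped. The 6 member rows took 0.364% ± 0.0248 (SD, n = 2) of all mouse FPKM in controls and 0.362% ± 0.00366 in Smc3 del/+. They took 0.0224% ± 0.0153 in Flt3-ITD libraries and 0.0608% ± 0.0398 in combined libraries. In bulk samples, fewer cells of a type and less RNA per cell cannot be told apart.

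Tests were run with limma on log2(FPKM + 1) over the 10854 genes whose mean reached 1 FPKM, and called at a Benjamini-Hochberg adjusted p under 0.05. 5 members entered them, Hbb-b1 among these. The averaged effect of Flt3-ITD, with and without the Smc3 deletion, called 4 of the 5 members lower and none higher, where 12.8% of all genes tested were called lower and 10.9% higher. Hba-a2 fell by 3.47 ± 0.569 (SE, adjusted p = 0.00490) and Hbb-b2 fell by 2.94 ± 0.332 (adjusted p = 0.00148). Car1 fell by 3.38 ± 0.565 (adjusted p = 0.00529) and Car2 fell by 3.39 ± 0.384 (adjusted p = 0.00148). Each was lower in all 4 libraries with Flt3-ITD than in all 4 without it, as 15.1% of all tested genes were. The averaged effect called 43.8% of all genes lower and 2.01% higher in the table the authors normalized, and 38.1% and 2.17% with spike-in scaling. These 4 calls held under all 17 alternatives tried for them, with each library left out among these.

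In Flt3-ITD against control alone, the same 4 members were called lower, against 9.50% of all genes called lower and 8.51% higher, and none was called higher. The share of all genes called depended on scaling. In the table the authors normalized 43.2% were called lower and 0.961% higher, and with spike-in scaling 31.0% and 0.949%. Without Mir5133 in the total these shares were 17.8% and 2.53%. The single row Mir5133 took 12.9% and 6.20% of all mouse FPKM in the controls. It took 0 and 3.90% in Smc3 del/+ libraries and 0 in all libraries with Flt3-ITD. Hba-a2 fell by 3.52 ± 0.856 (adjusted p = 0.0301), Hbb-b2 fell by 3.32 ± 0.459 (adjusted p = 0.00474), Car1 fell by 4.33 ± 0.696 (adjusted p = 0.00785) and Car2 fell by 4.19 ± 0.405 (adjusted p = 0.00166). Car2 alone kept its call whichever library was left out. Without control replicate 1, 2 members were called, against 1.78% of all genes lower, with Hba-a2 at adjusted p = 0.160 and Car1 at 0.0739. Without control replicate 2, 1 was called, against 2.25% of all genes, with Hba-a2 at 0.137, Car1 at 0.0620 and Hbb-b2 at 0.0504. The call of Hba-a2 was also lost without Smc3 del/+ replicate 1 (adjusted p = 0.0649) or 2 (0.0646) and without Flt3-ITD replicate 1 (0.0728) or 2 (0.153), where 5.37%, 5.36%, 2.89% and 4.27% of all genes were called lower.

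In the combined group against control, which shares its control libraries with the comparison before, 3 members were called lower, and none higher, against 6.38% of all genes called lower and 5.41% higher. Hba-a2 fell by 3.56 ± 0.856 (adjusted p = 0.0376), Hbb-b2 fell by 2.57 ± 0.459 (adjusted p = 0.0151) and Car2 fell by 2.87 ± 0.405 (adjusted p = 0.00739). Car1 differed by -2.48 ± 0.696 and did not pass (adjusted p = 0.0613). It passed without combined replicate 2, the library with the higher Car1 (-3.42, adjusted p = 0.00620), where 15.9% of all genes were called lower and the combined group was 1 library. It also passed in the table the authors normalized (-3.12, adjusted p = 0.00418), with spike-in scaling (-3.18, adjusted p = 0.00136) and without Mir5133 in the total (-2.71, adjusted p = 0.0266). Those 3 settings called 53.1%, 43.6% and 10.6% of all genes lower and 1.12%, 1.10% and 1.99% higher. Without either control, the share of all genes called lower was itself 0.562%. Without control replicate 1, no member passed, with Hba-a2 at adjusted p = 0.193, Hbb-b2 at 0.0985 and Car2 at 0.0744. Without control replicate 2 none passed either, with 0.182, 0.118 and 0.0666. The call of Hba-a2 was also lost without Smc3 del/+ replicate 1 or 2 (both 0.0838, 2.88% of all genes lower) and without Flt3-ITD replicate 1 (0.0526) or 2 (0.0528, both 4.60% lower).

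**Figure D2:**
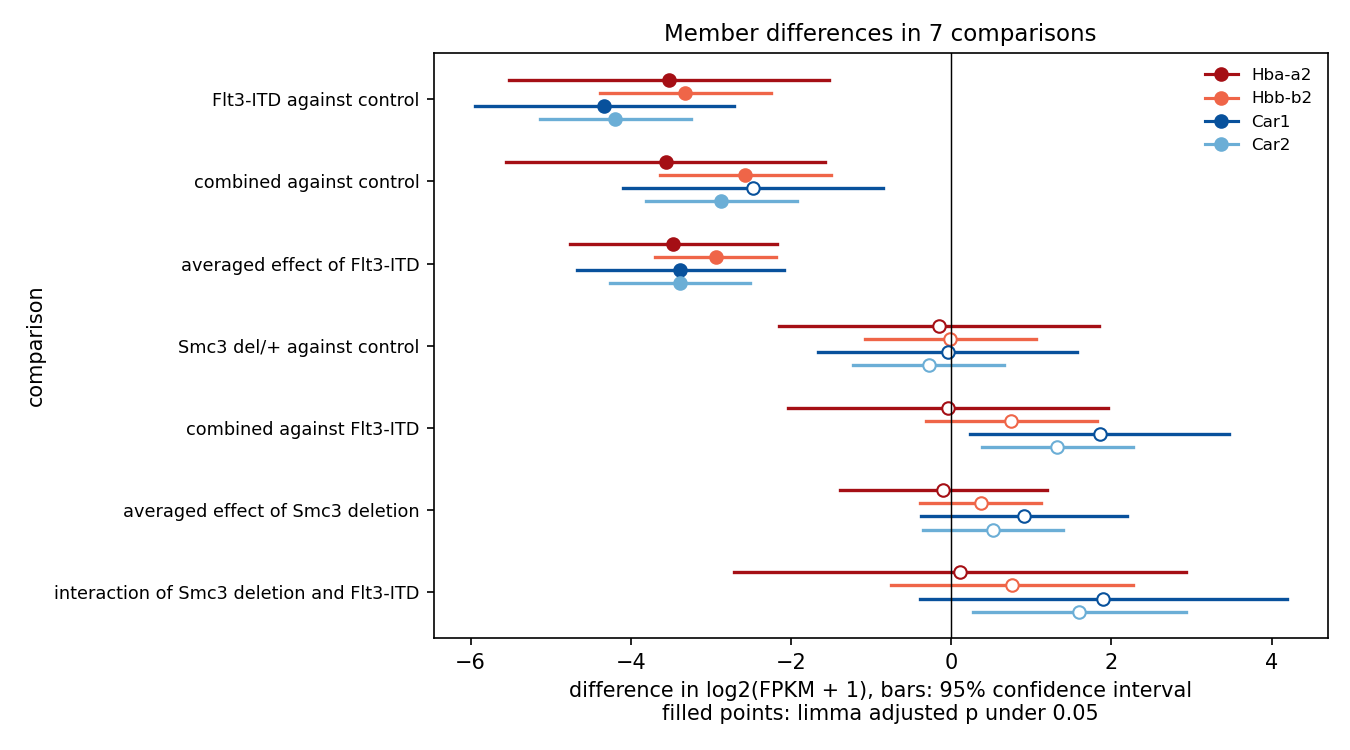
Differences in log2(FPKM + 1) of 4 members in 7 comparisons, with 95% confidence intervals; filled points have a limma adjusted p under 0.05. The first 3 comparisons, which involve Flt3-ITD against its absence, lie left of 0, and Car1 in the combined group against control is the only open point among them.

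The group labelled Smc3 del/+ against control gave no called member in either direction, where 0.00921% of all genes were called lower and 0 higher. At unadjusted p under 0.05, 494 genes passed in this comparison. Intervals were wide. The 95% interval of the difference from control ran from -2.15 to 1.84 for Hba-a2, from -1.08 to 1.05 for Hbb-b2, from -1.67 to 1.58 for Car1 and from -1.22 to 0.66 for Car2, on the log2(FPKM + 1) scale. Hba-a2 (308 and 314 FPKM against 347 and 346) and Car2 (327 and 359 against 423 and 408) were lower than both controls in both Smc3 del/+ libraries, by amounts that these intervals cannot tell from 0. Without Smc3 del/+ replicate 1, Hbb-b1 was called higher, because the 1 library with a value remained.

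The combined group was next set against Flt3-ITD, which asks whether the Smc3 deletion moves the members where they are already low. No member was called, against 0.240% of all genes called higher and 0.0461% lower, and 1196 genes had an unadjusted p under 0.05. Car1 differed by 1.85 ± 0.696 (adjusted p = 0.396, 95% interval 0.23 to 3.48) and Car2 differed by 1.32 ± 0.405 (adjusted p = 0.318, 0.38 to 2.27). Hba-a2 differed by -0.04 (interval -2.03 to 1.95) and Hbb-b2 differed by 0.75 (-0.32 to 1.82). Without combined replicate 1, Car1 (2.80, adjusted p = 0.0148) and Car2 (1.86, adjusted p = 0.00991) were called higher, in a fit that called 14.4% of all genes higher and 15.5% lower. The combined group is then 1 library, assumed to vary like the other groups. The interaction of both alleles called no member, against 0.0184% of all genes in each direction, with 1009 genes at unadjusted p under 0.05. Without combined replicate 1, it called Car1 (2.84, adjusted p = 0.0449) and Car2 (2.14, adjusted p = 0.0223) higher, along with 9.08% of all genes, and 9.67% lower, with the same assumption. The averaged effect of the Smc3 deletion called no gene at all, and 525 genes had an unadjusted p under 0.05.

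Ratios within a library remove differences that all members share. The alpha globin sum over the beta globin sum of the members was 2.42 and 2.03 in controls, 1.82 and 1.88 in Smc3 del/+ libraries, 2.14 and 1.84 in Flt3-ITD libraries and 0.858 and 2.30 in combined libraries. Only combined replicate 1 left the range of the other 7 libraries. With Beta-s counted as a beta globin, the mean ratio was 1.001 in controls, 0.833 in Smc3 del/+ libraries, 0.888 in Flt3-ITD libraries and 0.663 in combined libraries (0.445 and 0.881). The alpha globin sum over Car1, a ratio chosen after its values were seen, was 0.285 and 0.305 in controls, 0.281 and 0.266 in Smc3 del/+ libraries, 0.499 and 0.514 in Flt3-ITD libraries and 0.156 and 0.187 in combined libraries. The Flt3-ITD libraries were highest and the combined libraries lowest, without overlap, although the replicates of these groups were 3.66-fold to 7.40-fold apart in Hba-a2 and Car1 themselves. Car1 over Car2 was 2.87 and 2.78 in controls, 3.35 and 3.29 in Smc3 del/+ libraries, 3.48 and 1.99 in Flt3-ITD libraries and 2.84 and 4.96 in combined libraries, with overlap between the last 2 groups.

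**Figure D3:**
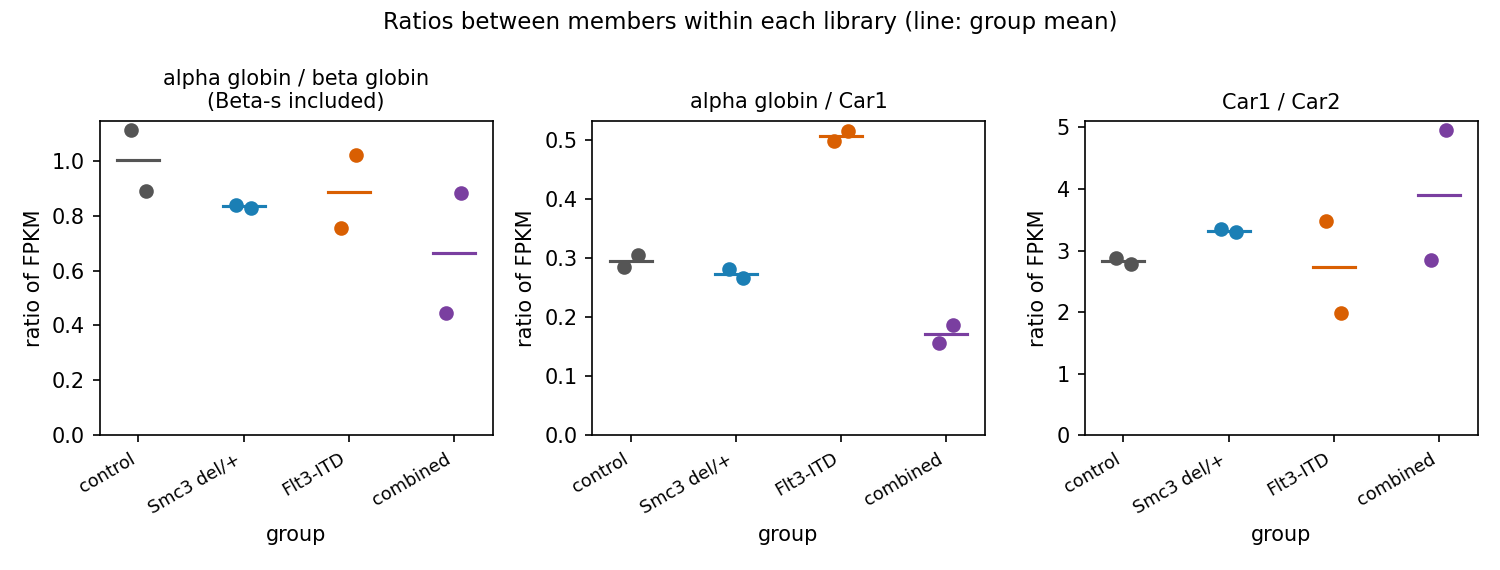
Ratios between members within each library, by group, with a point per library and a line at the group mean. The alpha globin sum over Car1 separates Flt3-ITD (0.499 and 0.514) from the combined group (0.156 and 0.187). The alpha over beta ratio, drawn with Beta-s counted as a beta globin, lies between 0.755 and 1.11 in all libraries but combined replicate 1 (0.445).

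Of the regulators of globin genes, a list of 18 transcription factors, cofactors and a kinase, all 18 were tested. In Flt3-ITD against control 8 were called lower and none higher, against 9.50% of all genes called lower and 8.51% higher. The median difference of the 18 was -0.51 beside -0.01 for all genes. Klf1, the activator of adult beta globin, stood at 42.1 and 51.5 FPKM in controls and 2.68 and 0.897 in Flt3-ITD, and fell by 4.17 (adjusted p = 0.00107). Gata1 stood at 30.1 and 32.2 FPKM in controls and 3.16 and 0.534 in Flt3-ITD, and fell by 3.67 (adjusted p = 0.00269). Both were thus lower in Flt3-ITD replicate 2 than in replicate 1, as Hba-a2, Hbb-b2, Car1 and Car2 were. Zfpm1, the partner of Gata1, fell by 3.06 (adjusted p = 0.000153) and Tal1 fell by 2.55 (adjusted p = 0.00140). Sox6 and Bcl11a act as repressors of embryonic globins: Sox6 fell by 1.98 and Bcl11a fell by 1.49. Ldb1, which ties the beta globin gene to its distant enhancer, fell by 1.05 and Tcf3, a partner of Tal1, fell by 1.06. The replicate order of Klf1 and Gata1 in Flt3-ITD was not shared by all called regulators. Tal1 (4.62 and 5.62 FPKM), Sox6 (0.215 and 0.306) and Ldb1 (32.3 and 37.6) were higher in replicate 2. Zfpm1 (3.54 and 3.47), Tcf3 (25.1 and 24.7) and Bcl11a (22.0 and 20.0) were slightly lower there. Nfe2, a factor of the beta globin enhancer, was among the 10 that did not pass, at 94.6 and 98.4 FPKM in controls and 169 and 131 in Flt3-ITD (0.62, adjusted p = 0.154). The repressors Zbtb7a (-0.22) and Mbd2 (-0.02), the remodeller Chd4 (-0.01) and Myb (-0.12) did not pass either. Fewer regulators were called lower without control replicate 1, without control replicate 2 or without Flt3-ITD replicate 1, where a smaller share of all genes was called too. In the table the authors normalized 14 were called lower, where 43.2% of all genes were, and with spike-in scaling 13, where 31.0% were. The median of all genes itself moved to -0.58 and -0.49 in these settings. In the combined group against control 6 were called lower, against 6.38% of all genes. Fewer were called without either control library, where the share of all genes called also fell.

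**Figure D4:**
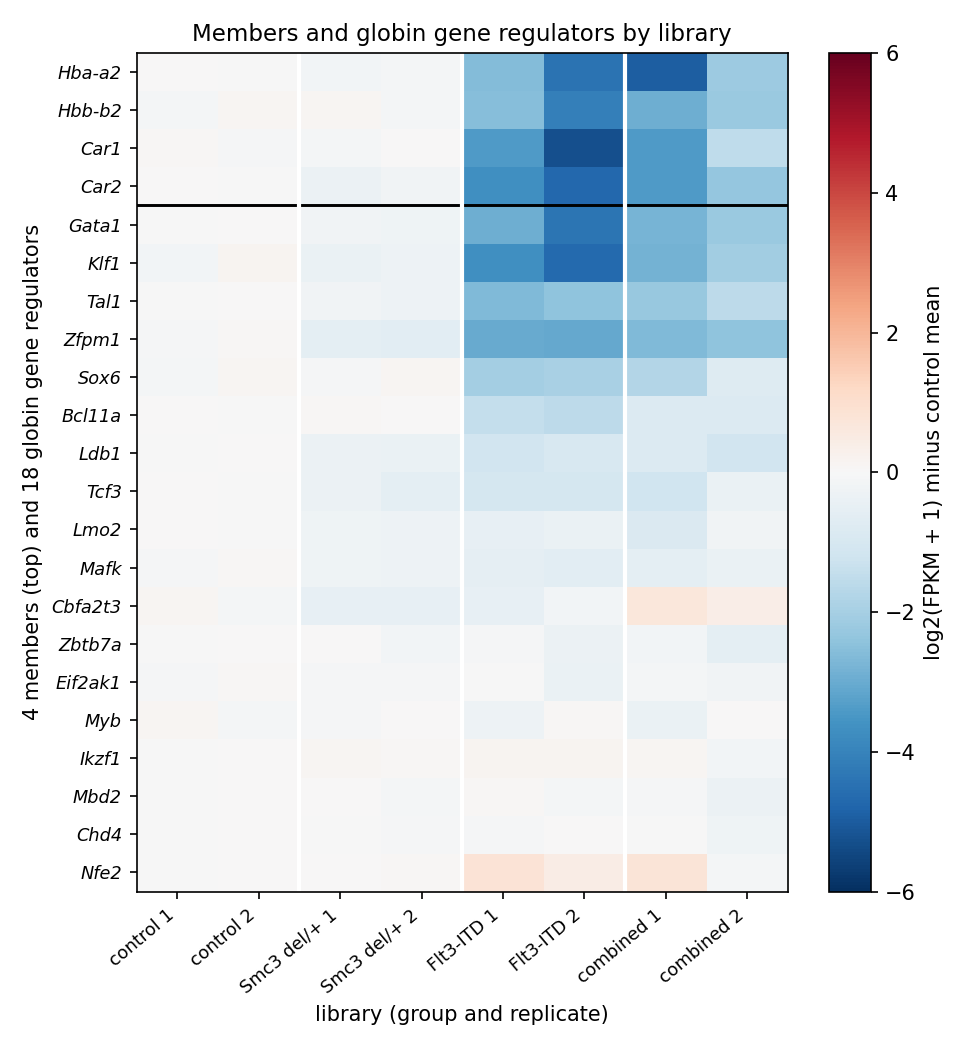
Log2(FPKM + 1) minus the control mean for 4 members and 18 regulators of globin genes (rows) in the 8 libraries (columns), on a colour scale from -6 to 6. Gata1, Klf1, Tal1 and Zfpm1 are low in the same 4 libraries as the members, and Nfe2 is not.

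Genes that work with haemoglobin in the red cell were counted in lists of their own, beside the 9.50% of all genes called lower and 8.51% called higher. Of 11 tested genes of red cell gas and ion transport, 9 were called lower in Flt3-ITD against control and none higher, with a median difference of -3.39. Slc4a1, the band 3 exchanger that trades the bicarbonate made by carbonic anhydrase for chloride, stood at 11.4 and 20.0 FPKM in controls and 0.693 and 0.401 in Flt3-ITD, and fell by 3.39 (adjusted p = 0.00140). The channel Aqp1 fell by 4.62 and Rhag, of the Rh complex, fell by 4.40 (both adjusted p = 0.00185). Of 13 genes of haem synthesis 9 were called lower and 1 higher, with a median of -1.58. Alad fell by 2.27 and Fech, which inserts the iron, fell by 1.92. The 1 called higher, Alas1, the housekeeping form of the first enzyme (0.65, adjusted p = 0.0420), is a share near that of all genes. Of 12 genes of haemoglobin redox protection 6 were called lower and 2 higher, with a median of -0.74. Prdx2, a peroxidase abundant in red cells, fell by 2.33 and Blvrb fell by 3.71. Gsr (0.83) and G6pdx (0.96), which keep glutathione reduced in many cell types, rose, and neither passed in the table the authors normalized or with spike-in scaling. With 1 library left out, the count called lower ran from 6 to 10 for transport (6 without control replicate 1), from 6 to 10 for haem synthesis (6 without either control) and from 4 to 7 for redox protection (4 without either control or either Flt3-ITD library). Alas1 did not pass without any 1 of the control, Smc3 del/+ or Flt3-ITD libraries. Neither Gsr nor G6pdx passed without control replicate 1, control replicate 2 or Flt3-ITD replicate 1. The share of all genes called also changed with the library left out, so these ranges do not describe the lists alone.

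Other genes of the same families gave little signal. The embryonic globins Hba-x, Hbb-y, Hbb-bh1 and Hbb-bh2 were listed at 0 in all 8 libraries. Hbq1b, a theta globin, was at 0.174 and 0.991 FPKM in controls and at 0 in all libraries with Flt3-ITD, and no embryonic globin reached the test. Of 14 other carbonic anhydrases 4 were tested and none was called in Flt3-ITD against control. Car13, the neighbour of Car1, was closest, at 4.86 and 3.14 FPKM in controls and 1.45 and 1.29 in Flt3-ITD (-1.06, adjusted p = 0.0503).

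On the chromosomes, the genes around the members were listed in order and compared. In the gene order of RefSeq, which is used here for order alone, Nprl3 lies beside the alpha globins and holds their distant enhancers in its introns; it differed by -0.62 (adjusted p = 0.0736) in Flt3-ITD against control. Mpg differed by -0.51 and Snrnp25 by -0.34, and neither passed. The only called neighbour at this locus was Stk10, which rose by 1.07 (adjusted p = 0.0274). At the carbonic anhydrase locus Car3 lies between Car1 and Car2 and differed by 0.50, without passing, and no gene there besides Car1 and Car2 was called. The olfactory receptor genes that flank the beta globins were listed at 0 in every library.

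**Figure D5:**
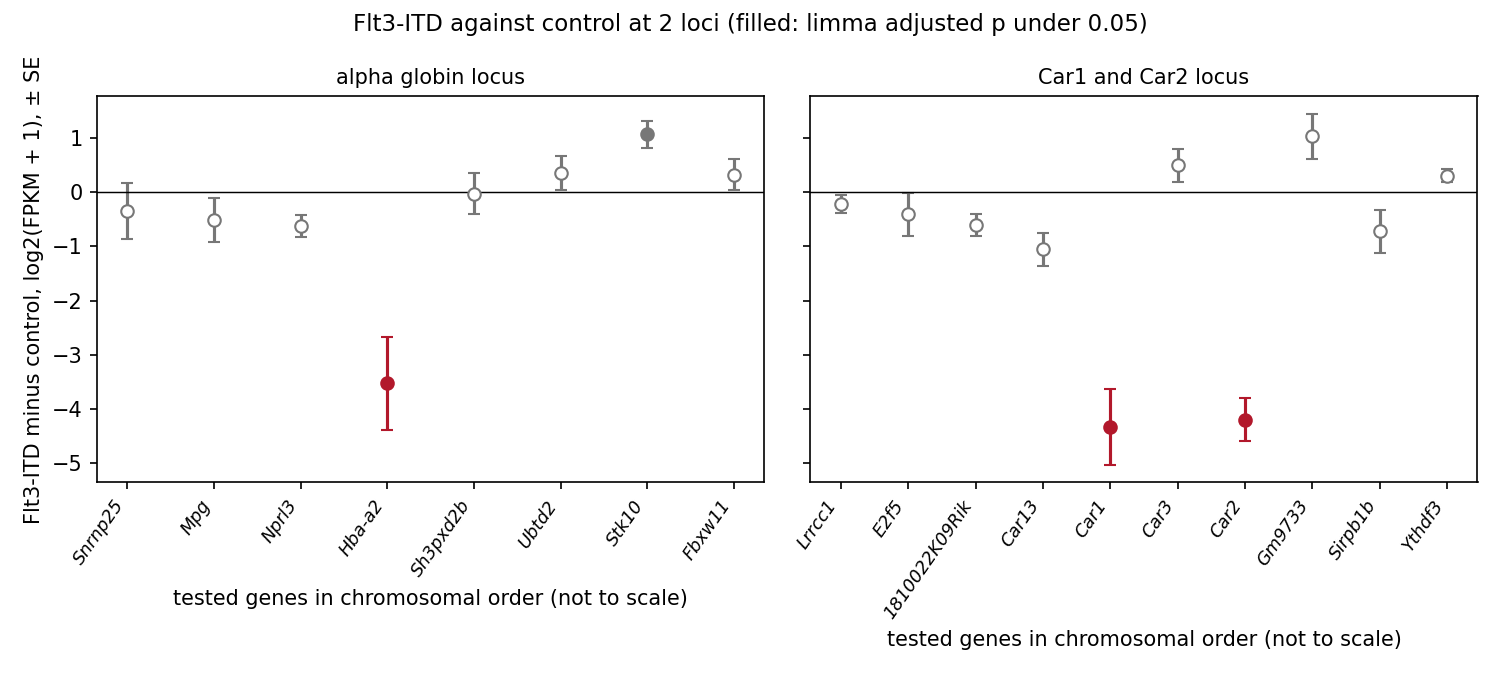
Differences in log2(FPKM + 1) between Flt3-ITD and control, with SE, for the tested genes around the alpha globins and around Car1 and Car2, in chromosomal order and not to scale. Hba-a2, Car1 and Car2 (red) lie between -3.52 and -4.33, and Stk10 (1.07) is the only other filled point.

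Hba-a2, Hbb-b2, Car1 and Car2 followed each other across the 8 libraries, with Pearson correlations of log2(FPKM + 1) from 0.932 (Hba-a2 with Car1) to 0.986 (Hbb-b2 with Car2). Hba-a1 and Hbb-b1, at 0.01 FPKM in most libraries, were left out. These describe 8 libraries in 4 groups and share the libraries' scaling. Against the mean profile of the 6 rows, the most similar genes were Mrpl35 (0.997), Anapc5 (0.989) and Psmc1 (0.987), and that profile is shaped by the single values of Hba-a1 and Hbb-b1. Against the mean of Hba-a2, Hbb-b2, Car1 and Car2, chosen after values were seen, they were St3gal6 (0.997), Nxpe4 (0.995), Cldn13 (0.992) and Ctse (0.992). Gata1 was 9th at 0.988, after Naa25 (0.990) and Slc20a1 (0.988) among others. For single members, Hba-a2 was nearest to Suz12 (0.989), Rif1 (0.985) and Cox6b2 (0.984). Hbb-b2 was nearest to Gata1 (0.994), Car1 to Cldn13 (0.995) and Car2 to Ctse (0.998).

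Markers of several cell types also differed between Flt3-ITD and control, some lower and some higher, and their part in the results was not tested. Their counts stand beside the same 9.50% of all genes called lower and 8.51% higher. All 11 tested early erythroid genes, Car1 among them, were called lower in Flt3-ITD against control. The whole list summed to 1695 to 1793 FPKM in the controls and 1539 to 1621 in Smc3 del/+ libraries. Its sums were 74.0 to 162 in Flt3-ITD libraries and 183 to 553 in combined libraries. Car1, itself a member, is a large part of these sums, so they are not evidence apart from the members. Control replicate 1 had 1216 of its 1793 FPKM from Car1, and Flt3-ITD replicate 2 had 29.5 of its 74.0. For late erythroid genes 9 of 14 were called lower and 1 (Bnip3l, named after its value was seen) higher, with sums of 441 in both controls and 193 to 220 in Flt3-ITD; Alas2 was at 2.49 and 3.31 FPKM in controls and 0.288 and 0 in Flt3-ITD. Granulocyte genes summed to 84710 to 91908 FPKM in controls and 168247 to 236395 in Flt3-ITD. Of these, 4 of 16 were called higher (Ltf, Camp, Lcn2 and Cd177, named after their values were seen). That count was not stable with 1 library left out, and the share of all genes called higher changed too. For B cells 12 of 13 were called lower, and Pax5 was at 0 in all 4 libraries with Flt3-ITD. For megakaryocytes 11 of 15 were called lower, for macrophages of the erythroblast island 7 of 11 lower and 1 (Emr1) higher, and for mast cells and basophils 3 of 7 lower and 1 (Hdc) higher. With 1 library left out, the counts called lower ran from 9 to 11 for early erythroid, 6 to 10 for late erythroid, 7 to 12 for B cell, 4 to 12 for megakaryocyte, 0 to 8 for macrophage and 0 to 5 for mast cell genes. The lowest came without control replicate 1 (early and late erythroid, megakaryocyte), control replicate 2 (macrophage), either control (mast cell) or Flt3-ITD replicate 1 (B cell). The share of all genes called lower also changed with the library left out, so these ranges do not describe the lists alone. In Flt3-ITD against control, 10 genes of c-Kit-positive progenitors were tested, 2 called lower and 1 higher, with a median difference of -0.12. The 1 tested T cell gene was not called. The sort marker Kit was at 60.1 and 54.9 FPKM in controls and 49.5 and 48.9 in Smc3 del/+ libraries. It was at 48.1 and 57.6 in Flt3-ITD libraries and lowest in the combined libraries, at 40.1 and 37.4. Xist, expressed from the inactive X of females, was at 500 to 657 FPKM in the control and combined libraries and at most 0.936 in the others, so sex and genotype cannot be told apart in Flt3-ITD against control, Smc3 del/+ against control, combined against Flt3-ITD and the interaction. The combined group against control compares libraries of 1 sex, and the averaged effects hold both sexes in equal numbers on each side. Mx1-cre is not balanced in the averaged effects, since the controls lack it and lie on the side without the allele. Depth in reads is unknown; 10490 to 10843 genes reached 1 FPKM per library.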

How the data were processed

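Polyadenylated RNA of c-Kit-selected marrow was sequenced in 8 libraries, 2 per group, from individual mice. The authors deposited FPKM in 2 tables; the submitters' processing notes name mm9, Cufflinks 2.0.0 and TopHat without their roles, and of the annotation, the use of strand and the normalization of the second table nothing is given in the sources used here. Main results rest on the table without that normalization (23293 mouse genes, 92 spike-ins). FPKM holds no counts, so depth is unknown and no count test was used.

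Values were tested as log2(FPKM + 1), which understates changes of low genes, using limma 3.58.1 (R 4.3.3) and a trend of variance with level. The 10854 genes whose mean reached 1 FPKM entered, adjusted over all of them by Benjamini-Hochberg at 0.05. Single comparisons and the interaction came from 1 model with 4 group means (4 residual degrees of freedom), and averaged effects from an additive model (5). Simulated data held 200 changed genes, drawn from those of higher level only. In them, the fit of Flt3-ITD against control recovered 53% of log2 changes of 1 and 90% of changes of 2. For the interaction these shares were 19% and 82%.

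Members, lists and rules were chosen with earlier results of these data known. Members are all reported. Other genes are named by list membership, with the smallest p in their list, by place beside a member or by highest correlation with it. Alternatives were another pseudocount, no filter, the authors' normalized table, the compared groups only, a replicate block, median centring, spike-in scaling, totals without Mir5133, no variance trend and each library left out. Summing globin copies and counting Beta-s as a beta globin were added after seeing the data. Sequences came from GENCODE vM21 and RefSeq tables, whose build differs from mm9, so no coordinate of the files was used.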

Additional observations from a re-analysis of the deposited data

How the results depend on the processing

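The averaged effect of Flt3-ITD on the members kept its 4 calls under every alternative. Of 492 alternative fold changes of Hba-a2, Hbb-b2, Car1 and Car2, 441 kept direction and call, 26 lost a call, 8 gained one and 17 changed sign. Hbb-b1 is not among them, and the cause was not tested. Fitting only the compared groups called 0 members lower in the combined group against control. That setting called 0.221% of all genes lower, against 6.38% in the main fit, with Hbb-b2 at limma adjusted p = 0.0516 and Car2 at 0.0640. With 1 library left out, calls of members as lower were lost in some fits of Flt3-ITD against control and of the combined group against control. Members called higher ranged from 0 to 1 in Smc3 del/+ against control, 0 to 2 in combined against Flt3-ITD and 0 to 2 in the interaction, and lower from 0 to 1 in the interaction. Each 1 is Hbb-b1, which has a value in a single library, and each 2 comes from a fit with 1 combined library that called many genes.

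Sign changes were confined to differences that did not pass. Smc3 del/+ against control: Hbb-b2 was 0.0032 after median centring, 0.10 with copies summed and -0.14 to 0.11 with 1 library left out, and Car1 -0.10 to 0.0089. Combined against Flt3-ITD: Hba-a2 was 0.30 with copies summed and -1.43 to 1.35 with 1 library left out, and Hbb-b2 -0.022 to 1.52. Interaction: Hba-a2 ran from -1.27 to 1.50 and Hbb-b2 from -0.0095 to 1.53. Averaged Smc3 deletion: Hba-a2 was 0.073 with copies summed and -0.66 to 0.45 with 1 library left out, and Hbb-b2 -0.017 to 0.60.

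Without Mir5133 in the total, the members' share was 0.402% in controls and 0.369% in Smc3 del/+. The alpha over beta ratio with Beta-s was 1.001 in controls, 0.833 in Smc3 del/+ libraries, 0.888 in Flt3-ITD libraries and 0.663 in combined libraries. Replicate numbers did not pair the samples (correlations of same-numbered deviations from -0.113 to 0.0229); with the replicate block, Hba-a2 in the combined group against control lost its call (adjusted p = 0.0572). Without the filter on low values, Hba-a2 also lost it in Flt3-ITD against control (0.0715) and in the combined group against control (0.0820). Combined replicate 2 had the most genes listed at 0 (11076), and depth is unknown.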

Other observations

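Relatives of the members that are known from other tissues were low or listed at 0. Mb, the oxygen store of muscle, and Ngb, its counterpart in neurons, were listed at 0 in all 8 libraries. Of the carbonic anhydrases, Car4 and Car10 were listed at 0 in all libraries. Car3, the form of muscle and fat, ran from 3.84 to 7.89 FPKM over the 8 libraries, Car9, a form that hypoxia raises, from 0.297 to 3.99 and Car12 from 0.413 to 2.60. None of these 3 passed the limma test in Flt3-ITD against control.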
